A study of Mus musculus with 45 samples.

Results

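The bone morphogenetic protein (BMP) pathway is described here through 10 genes: the ligands Bmp2, Bmp3, Bmp4 and Bmp7, the type I receptor Bmpr1a, the target genes Id1, Id2 and Id3, and the inhibitory Smads Smad6 and Smad7. The genes were taken by symbol, and each is 1 of the 52636 gene rows in both tables of expression, 1 table for sorted stem cells and 1 for organoids. The study asked how the receptor Lgr5 and the Rspondins (Rspo), the secreted Wnt-enhancing ligands that it binds, act on mouse intestinal stem cells. RNA was sequenced in 15 libraries of sorted cells and in 30 of organoids, and values are in CPM, the reads of a gene scaled so that every library has the same total.

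BMPs are secreted dimers that bind pairs of type I receptors, such as Bmpr1a, and type II receptors. The receptors phosphorylate Smad1, Smad5 and Smad9, which enter the nucleus with Smad4 and switch on genes, among them the Id genes, whose products block basic helix-loop-helix transcription factors, and Smad6 and Smad7, which feed back to inhibit the signal. Bmp3 is an atypical ligand that counteracts other BMPs. In the small intestine, most BMP ligand is made by the mesenchyme and acts on villus cells, while antagonists such as Noggin keep the signal low around the stem cells at the crypt base.

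Sorted cells were eGFP+ cells of Lgr5-DTReGFP mice, in which a diphtheria toxin receptor-eGFP cassette is knocked in at Lgr5 and disrupts it, so that every heterozygous (HE) animal carries 1 null allele and homozygous animals (KO) have no intact Lgr5. At E16.5 each library was a pool of embryos from 1 of 2 litters, with 7 and 8 HE embryos and 2 and 6 KO embryos. At E18.5, 2 HE embryos were sequenced singly, and of 2 HE adults aged 2 months, mice 71 and 77, the duodenum and the ileum were taken from each. A second adult set came from the ileum of 2-month-old mice that carried a Lgr5-Cre allele and a Rosa-Tomato reporter. They were given 2 mg of tamoxifen and harvested 48 h later, and eGFP+/RFP+ cells were sorted. By their labels 2 of these mice were Lgr5-Cre/+ (HE) and 3 were Lgr5-Cre/flox (conditional knockout, cKO), in which Cre removes a floxed Lgr5 exon only in cells that express Cre, and the Cre allele itself replaces 1 copy of Lgr5 in both groups. Organoids were grown from the small intestine of E17.5 Lgr5-DTReGFP embryos, 3 wild-type (WT) cultures (10, 5 and 30) and 2 KO cultures (7 and 2), and were harvested at passage 4. Each culture was kept with mouse Rspo1, Rspo2 or Rspo3 at 100 or 5 ng/ml. The organoid medium also held EGF and the BMP antagonist Noggin in every condition.

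Sorted-cell libraries held 1275948 to 9984674 reads on genes and organoid libraries 18127756 to 33105693, so that in the shallowest library 1 read was worth 0.784 CPM. Lgr5 itself was lower in the E16.5 KO pools (64.8 and 51.7 CPM) than in the HE pools (104 and 125 CPM), but reads were still present. In the adult Cre mice it was not lower in the libraries labelled cKO (89.2, 109 and 90.7 CPM) than in those labelled HE (52.8 and 87.6 CPM). The genotypes of these 5 libraries conflict: in another table of the study, whose values equal the deposited ones for all 859 genes listed, the library labelled HE 1 stands as a cKO and the library labelled cKO 2 stands as an HE. By the other genotypes Lgr5 was at 87.6 and 109 CPM in HE and at 52.8, 89.2 and 90.7 CPM in cKO. Results of the members in these mice are therefore given by the labels, by the other genotypes, and without these 2 libraries. Those of the other pathway genes are given by the labels only. Both libraries labelled HE came from males, with the Y-linked Ddx3y read and Xist near 0, and all 3 labelled cKO from females. In organoids Ddx3y was read in all 12 KO libraries (55.0 to 73.5 CPM) and in the 18 WT libraries stayed at 0.45 CPM or less, with Xist at 1030 CPM or more in WT and at 39.1 CPM or less in KO, save 213 CPM in KO culture 2 with 100 ng/ml Rspo1, so sex and genotype cannot be told apart there. Epithelial markers were high in every sorted library (summed level 2783 to 7186 CPM). Mesenchyme markers, 15 genes such as Col1a1 and Vim, were also read in the E16.5 pools, at a summed 914 to 1950 CPM in HE and 209 to 564 CPM in KO. Among these pools KO pool 1 alone had almost no Xist (1.55 CPM), and of the E18.5 embryos 1 was male and 1 female.

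To show target and receptor at the level of sequence, the upstream region of each gene was searched for GGCGCC, the GC-rich element that BMP Smads bind, which reads the same on both strands. Promoters of 5 of the 10 members are listed in the RefSeq promoter table (GRCm38.p6): Bmp4, Bmpr1a, Id2, Id3 and Smad6. Of these, the target Id2 and the receptor Bmpr1a hold the letters once in the 250 bases before the start, and Bmp4, Id3 and Smad6 do not. The same letters occur in 9.59% of all 32851 listed promoters, 3149 in number. The stretches below are 80 bases long, 5′ to 3′ on the minus strand, with the match in capitals, 231 bases before the start in Id2 (chr12:25096263-25096342) and 198 bases before it in Bmpr1a (chr14:34502702-34502781). Both lie within the span of the Ensembl gene (Id2 chr12:25093799-25097140, Bmpr1a chr14:34410734-34503341, protein-coding), which begins further upstream than the RefSeq start. A match is a description of these letters and no binding was measured here.
Id2: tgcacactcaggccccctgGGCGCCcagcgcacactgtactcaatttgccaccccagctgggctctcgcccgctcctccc
Bmpr1a: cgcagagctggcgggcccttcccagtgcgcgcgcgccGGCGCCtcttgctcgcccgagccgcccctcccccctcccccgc

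Levels were compared between genes as CPM per kb of exon. Bmpr1a was among the most abundant members throughout and the steadiest: it lay between 14.0 and 24.4 CPM per kb in the 7 sorted-cell groups and between 17.0 and 21.8 in the 12 organoid groups. At E16.5 the leading member was Id3 (42.8 ± 11.9 CPM per kb in HE, SD, n = 2), and from E18.5 on it was Id1, which reached 59.5 ± 4.76 CPM per kb in adult duodenum. Bmp4 was the lowest ligand outside E16.5, with 5.88 ± 3.54 CPM per kb in E16.5 HE cells and at most 0.208 in every later sorted group. In organoids grown with 5 ng/ml Rspo1 or Rspo3, Bmp3 was the leading member, at 32.3 ± 10.04 CPM per kb in WT organoids with Rspo1, whereas Bmp4 stayed at or under 0.349 CPM per kb in all 12 groups. Reads of Bmp4 could include those of the antisense-strand genes Gm15217 and Gm15222, and those of Bmpr1a could include Gm17110, since the sources used here do not say that strand was counted. These partners were read at no more than 1.60, 0.45 and 9.85 CPM in any sorted library.

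**Figure D1:**
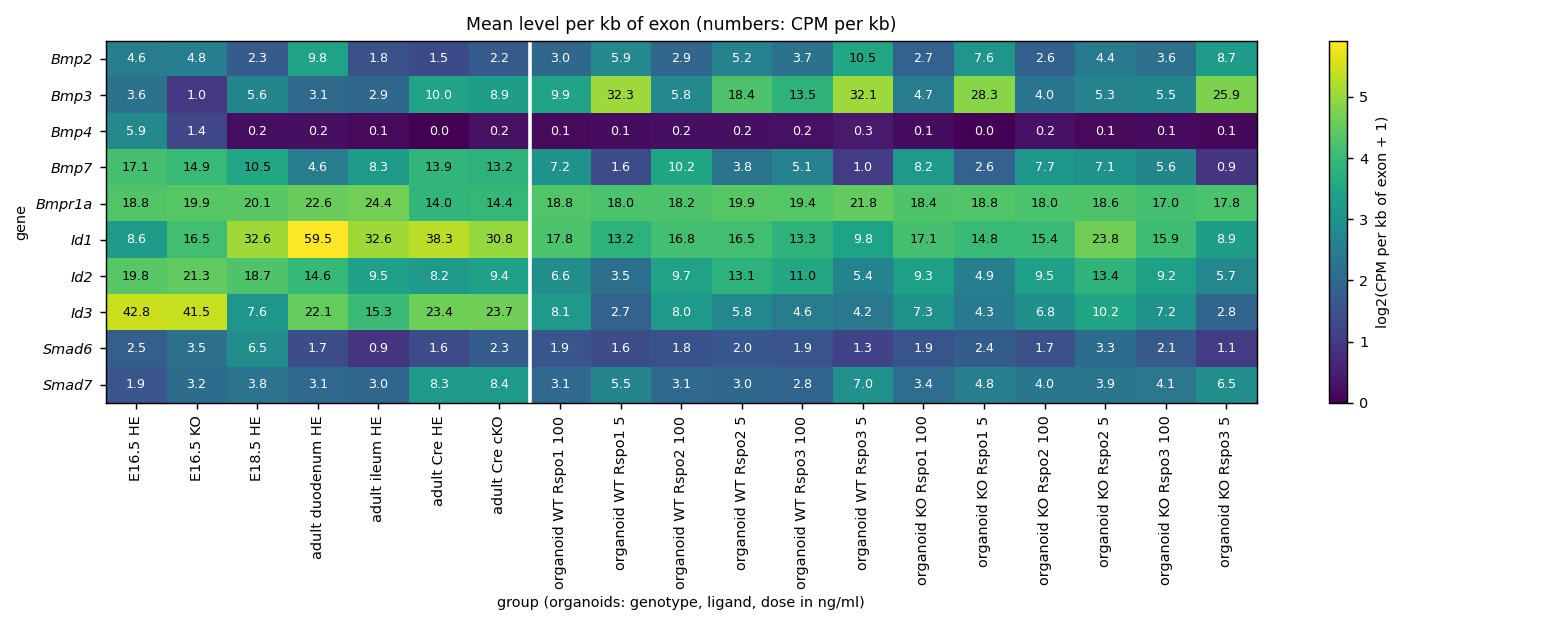
Heat map of the mean level of each member (rows) in the 7 sorted-cell groups and the 12 organoid groups (columns, split by a white line). Colour is log2(CPM per kb of exon + 1) and the printed numbers are CPM per kb. Bmpr1a keeps to 14.0 to 24.4 CPM per kb over the sorted groups, while Bmp4 runs from 5.88 down to 0.

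The E16.5 pools asked what loss of Lgr5 changes in the fetal stem cells. Of the 10 members 1 was called, Bmp3, against 0.527% of the 17276 genes tested (91 genes), at a false discovery rate of 0.1 and a fold change of 1.5. Among the ligands, Bmp3 lay at 29.0 and 24.8 CPM in HE pools 1 and 2 and at 6.55 and 7.95 CPM in KO pools 1 and 2, so the 2 genotypes did not overlap. The gene (chr5:98854415-98884396, plus strand) had a log2 fold change of -1.76 ± 0.30 (SE; limma, adjusted p = 0.0677). The call was lost without KO pool 1 (adjusted p = 0.121), with a pseudocount of 0.1 (0.193) and when every gene with a nonzero library was tested (0.448), and the log2 fold change in these ran from -1.88 to -1.63.

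Bmp4, a classical mesenchymal ligand, measured 18.9 and 7.60 CPM in HE against 2.30 and 4.00 CPM in the KO pools. The KO values lay below both HE values, with a log2 difference of -1.69 ± 0.49 and an adjusted p of 0.191, which did not pass. With the litter as a block, since both genotypes came from the same 2 litters, Bmp4 passed as lower in KO (adjusted p = 0.0189). The block left its log2 difference at -1.69 and its SE at 0.48, and deviations correlated at -0.03 within litters. The lower p thus came from how the test modelled the spread, and not from the pairing. Bmp4 also passed with edgeR on the recovered reads with the litter block, an alternative added after seeing the data (log2 -2.02, adjusted p = 0.00764). In bulk libraries, fewer cells of a type and less RNA per cell cannot be told apart. Mesenchyme markers moved with Bmp4: their summed level was highest in HE pool 1 (1950 CPM), which also had the highest Bmp4, and lowest in KO pool 1 (209 CPM), which had the lowest Bmp4. Endothelial markers summed to 25.4 to 55.0 CPM in HE and 5.45 to 23.6 CPM in KO, immune markers to 65.4 to 104 against 26.3 to 33.5 CPM, and enterocyte markers to 1374 to 1659 against 657 to 718 CPM. Paneth cell markers (83.9 to 92.6 against 140.2 to 267 CPM) and goblet cell markers (327 to 347 against 444 to 691 CPM) were above HE in both KO pools. Of these lists, 4 of 8 enterocyte, 1 of 14 mesenchyme and 1 of 6 immune markers were called lower and 1 of 5 goblet markers higher, 1 of 6 stem cell markers was called in each direction, and none of the endothelial or Paneth cell markers was called. The mesenchyme markers had a median log2 difference of -1.58 against 0.08 over all genes tested. The cells were sorted as eGFP+ with doublets gated out, and the part of other cells in the Bmp3 and Bmp4 differences was not tested. Bmp2 (18.9 and 14.2 CPM in HE, 20.0 and 14.3 in KO) and Bmp7 (56.5 and 81.3 and 57.5 and 62.8 CPM) overlapped between genotypes.

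The receptor Bmpr1a was at 113 and 126 CPM in HE and 122.95 and 130.3 CPM in KO, and the interval of its log2 difference ran from -0.24 to 0.41. Among the targets, Id1 stood at 13.4 and 6.60 CPM in HE and 18.8 and 19.5 CPM in KO. Both KO pools were above both HE pools, but the log2 difference of 0.95 ± 0.36 did not pass (adjusted p = 0.289). Without HE pool 1, or in a single fit of all 15 sorted libraries, it did pass as higher. Smad7, an inhibitor of the receptor, was at 9.45 and 8.10 CPM in HE and 14.6 and 14.7 CPM in KO (log2 difference 0.68 ± 0.32, adjusted p = 0.377). Smad6 was at 4.75 and 11.1 against 11.5 and 11.2 CPM. The KO values of Smad7 were above those of HE without passing, while Id2 and Id3 overlapped, with log2 differences of 0.13 and -0.02. For Smad6 the higher HE value (11.1 CPM) and the lower KO value (11.15 CPM) lay closer than the worth of 1 read, 0.383 CPM or more in these pools. How many of all genes did not overlap between the genotypes was not counted, which also holds for Bmp3, Bmp4 and Id1.

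**Figure D2:**
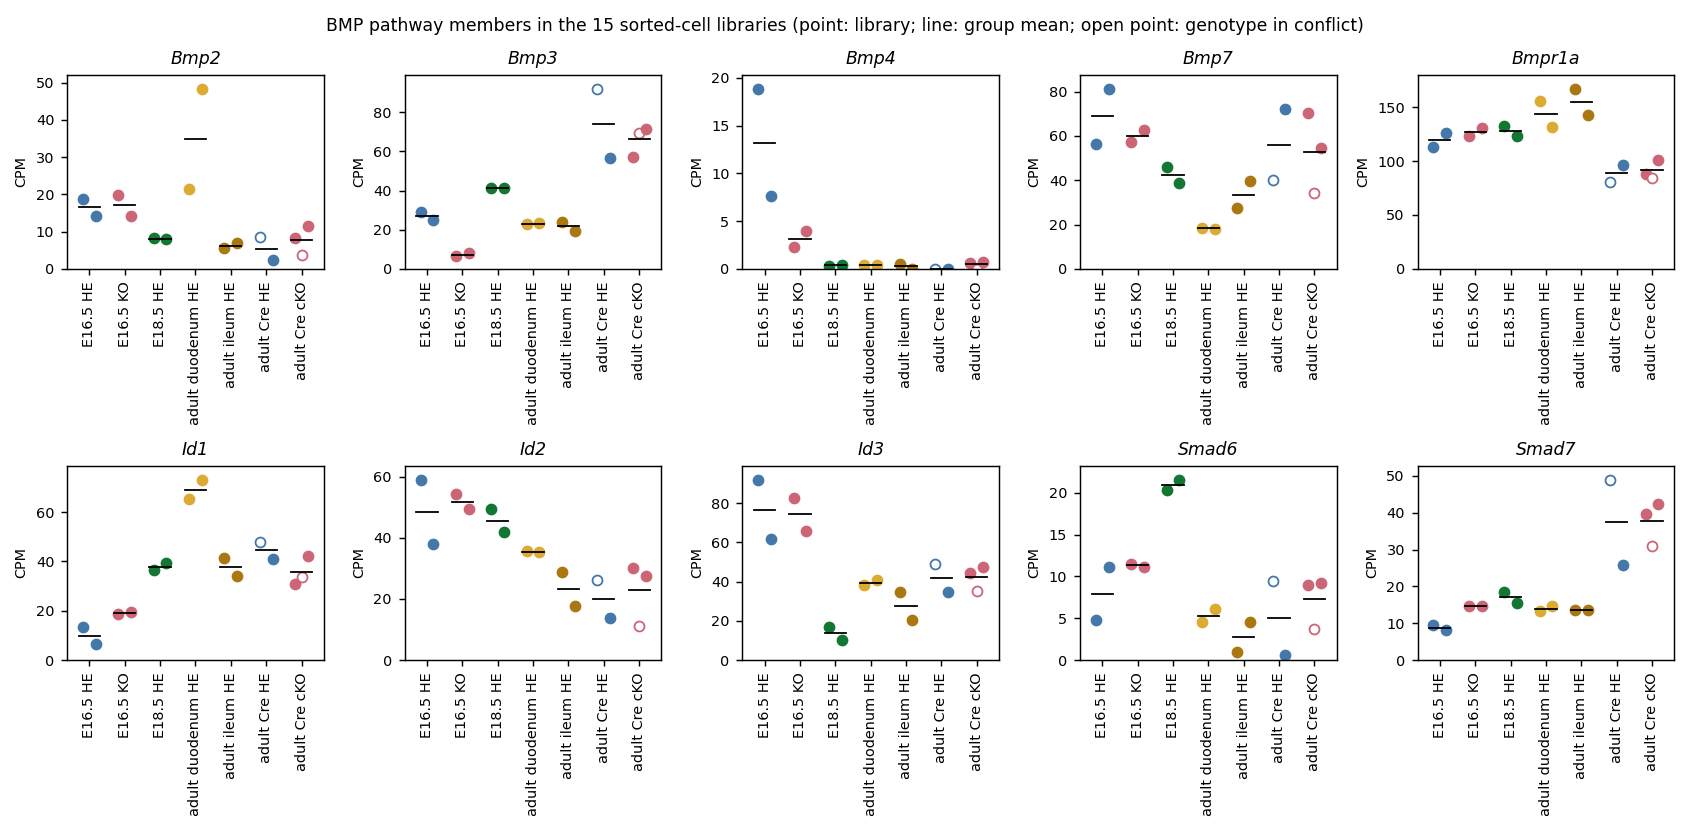
CPM of each member in the 15 sorted-cell libraries, with 1 point per library and a line at the group mean. Open points are the 2 libraries whose genotype is in conflict. Bmp3 was at 6.55 and 7.95 CPM in the E16.5 KO pools, below every other library, and Bmp4 was above 2 CPM only at E16.5.

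Between E16.5 and E18.5 the HE cells changed in most members: 8 of 10 were called, beside 49.6% of the 18408 genes tested, so calls were common in this comparison (30.3% higher and 19.4% lower). By role, 3 of the 4 ligands were lower and both inhibitory Smads higher. Bmp4 fell from 18.9 and 7.60 CPM to 0.250 and 0.450 CPM, near the worth of 1 read, with a log2 fold change of -3.28 ± 0.47 (adjusted p = 0.00282). Bmp2 fell from 18.9 and 14.2 to 8.35 and 7.90 CPM (-0.93 ± 0.26) and Bmp7 from 56.5 and 81.3 to 46.2 and 38.6 CPM (-0.67 ± 0.20). Bmp3 went the other way, from 29.0 and 24.8 to 41.6 and 41.4 CPM (0.61 ± 0.16, adjusted p = 0.0220). The Bmp3 call did not hold under TMM scaling, which moved the median of all genes by -0.13 and gave Bmp3 a log2 fold change of 0.47, under the fold limit.

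The target genes split over these days of development. Id1 rose from 13.4 and 6.60 to 36.5 and 39.3 CPM (log2 fold change 1.89 ± 0.32, adjusted p = 0.00487), and no E16.5 value reached an E18.5 value. Id3 fell from 91.7 and 61.6 to 16.9 and 10.3 CPM (-2.42 ± 0.29, adjusted p = 0.00148). Id2 overlapped, at 58.8 and 37.9 against 49.4 and 41.9 CPM. Smad6 rose from 4.75 and 11.1 to 20.3 and 21.5 CPM (1.39 ± 0.38) and Smad7 from 9.45 and 8.10 to 18.45 and 15.6 CPM (0.88 ± 0.25). Bmpr1a did not pass (log2 difference 0.10, interval -0.18 to 0.37). Without E18.5 embryo 1, 5 members were called, and without embryo 2, 4 were. Without E16.5 HE pool 1, 7 were called, and without pool 2, 5 were, and with either pool left out Bmp4 did not pass the filter on low values. Id1, Id3 and Smad6 were called whichever library was left out. With every gene that had a nonzero library tested, Smad6 (adjusted p = 0.108) and Bmp7 (0.134) did not pass. In 1 fit of all 15 sorted libraries, Smad6 (0.115) and Bmp2 (0.151) did not. All 14 mesenchyme markers tested and all 5 endothelial markers were called lower at E18.5, where the mesenchyme sum was 93.1 to 94.4 CPM, as were 4 of 6 immune markers. Of the stem cell markers 5 of 6 were higher (546 to 562 CPM summed at E16.5, 2642 to 2724 CPM at E18.5), as were 5 of 7 epithelial markers. The part of these lists in the changes of Bmp2, Bmp3, Bmp4, Bmp7, Id1, Id3, Smad6 and Smad7 was not tested.

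Between E18.5 and the adult, 3 of the 9 members tested were called, beside 19% of 19554 genes. Bmp4, at 0.50 CPM or less in all 6 libraries, was not tested. Bmp3 was at 41.6 and 41.4 CPM in the embryos, 22.7 and 23.6 in adult duodenum and 24.1 and 19.3 in adult ileum, so that every adult library was lower (-0.86 ± 0.15, adjusted p = 0.00813). Smad6 was at 20.3 and 21.5 CPM in the embryos and at 4.50 and 6.10 in adult duodenum and 1.00 and 4.60 in adult ileum (-2.26 ± 0.48, adjusted p = 0.0193). Smad6 was thus highest at E18.5 among the HE stages of this line. Id3 was higher in the adult, at 38.4 and 40.7 CPM in duodenum and 34.6 and 20.4 in ileum against 16.9 and 10.3 CPM at E18.5 (1.23 ± 0.31, adjusted p = 0.0338). None of the 3 calls held when either E18.5 embryo was left out, with the other embryo then alone in its group and assumed to vary like the adult libraries. The 4 adult libraries come from 2 mice, and with the 2 regions of a mouse averaged, 6 members were called, as Bmp2, Bmp7 and Id2 were added. For Bmp2 the average hides a split between regions. Against 7.90 and 8.35 CPM at E18.5, it was higher in adult duodenum (21.5 and 48.3 CPM) and lower in adult ileum (5.60 and 6.90 CPM). Without that averaging Bmp2, Bmp7 and Id2 had log2 differences of 0.76, -0.75 and -0.66, and Bmpr1a (0.22), Id1 (0.42) and Smad7 (-0.28) did not pass either. Cell type markers also differed between these stages. In the adult all 6 Paneth cell markers (146 to 152 CPM summed at E18.5, 11380 to 28690 CPM in the adult), all 4 tuft markers (1.70 to 4.65 against 169 to 2483 CPM), 3 of 6 stem cell and 3 of 5 goblet markers were higher. Of the mesenchyme markers 9 of 11 were lower, and of the enterocyte markers 5 of 8 were lower and 2 higher. Their part in the changes of Bmp3, Smad6 and Id3 was not tested.

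In the adult, the ileum differed from the duodenum in 2 of 9 members tested, Bmp2 and Id1, beside 6.88% of 18608 genes. Bmp2 was at 21.5 CPM in the duodenum and 5.60 in the ileum of mouse 71, and at 48.3 and 6.90 CPM in mouse 77 (log2 fold change -2.20 ± 0.37, adjusted p = 0.0222). Id1 was at 65.2 against 41.4 CPM in mouse 71 and 73.0 against 34.2 CPM in mouse 77 (-0.86 ± 0.18, adjusted p = 0.0457). Both genes were lower in the ileum of each mouse, and the Id1 call was lost without either library of mouse 77. With the mouse as a block, since both regions came from the same animals, Bmp7 was also called, higher in the ileum (18.6 and 18.2 CPM in duodenum, 27.3 and 39.6 in ileum, 0.81 ± 0.19, adjusted p = 0.0374), and Id2 lower (35.7 and 35.3 against 28.8 and 17.7 CPM, adjusted p = 0.0955). Tuft cell markers were lower in the ileum (4 of 4 tested, summed 1408 to 2483 against 169 to 345 CPM), as were 6 of 8 enterocyte markers (526 to 700 against 250.1 to 269.9 CPM), and their part in the Bmp2 and Id1 differences was not tested. Bmpr1a and Smad7 lay close in both regions, with log2 differences of 0.11 (interval -0.28 to 0.50) and -0.04 (-0.55 to 0.47). Bmp3 (-0.10), Id3 (-0.55) and Smad6 (-0.90) did not pass, and Bmp4 was too low to be tested.

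**Figure D3:**
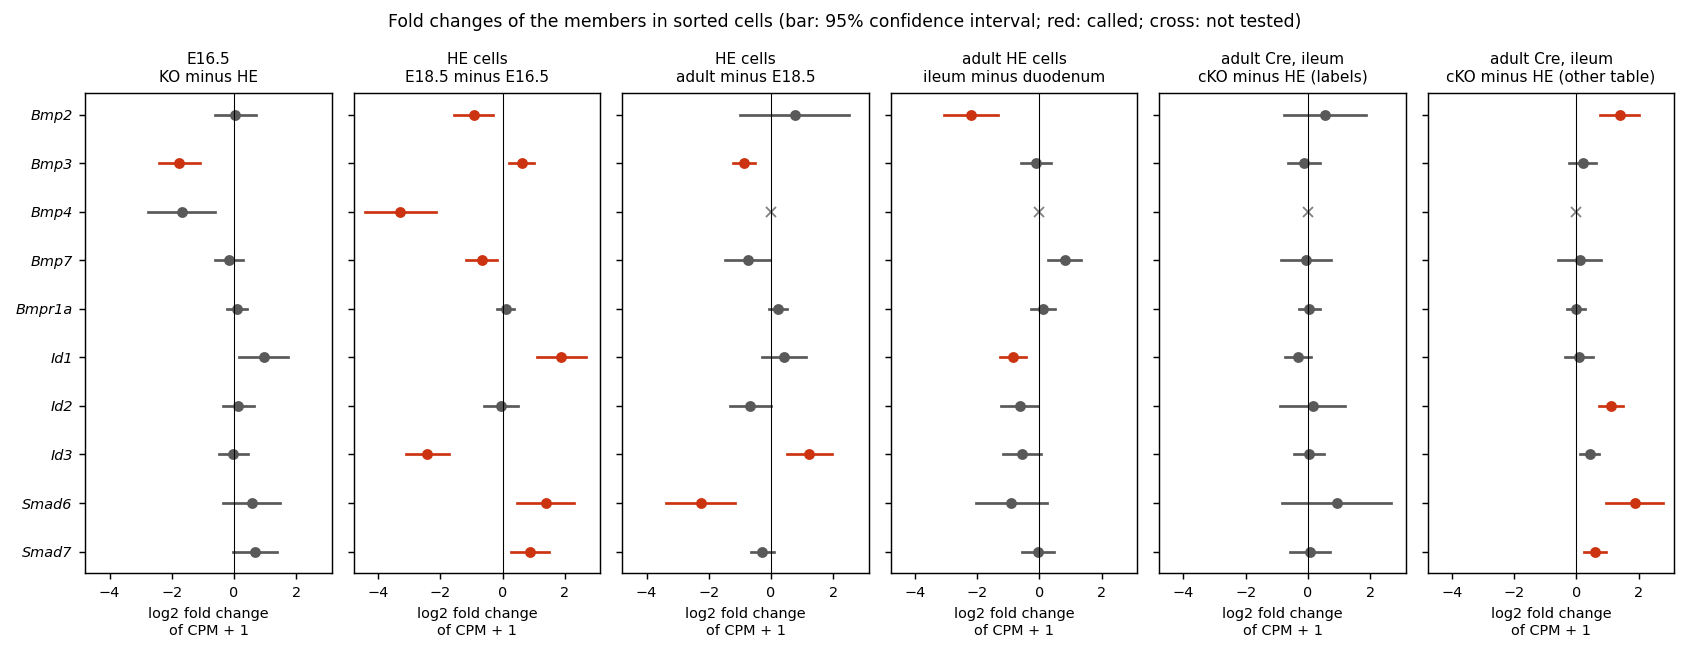
Log2 fold change of each member in the comparisons of sorted cells (limma on log2(CPM + 1)), with bars for the 95% confidence interval, red for called genes and a cross for genes not tested. The last 2 panels give the adult Cre mice by the labels and by the genotypes of the other table. Bmp4 falls furthest between E16.5 and E18.5 (-3.28), and Bmpr1a stays between -0.01 and 0.22.

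In the adult Cre mice, no member was called by the labels, beside 0.0504% of 19848 genes (10 genes). An unadjusted p under 0.05 was reached by 902 of the genes tested and by none of the members. Bmp3 was at 92.0 and 56.5 CPM in the libraries labelled HE and 57.4, 69.3 and 71.8 CPM in those labelled cKO, and the groups overlapped (log2 difference -0.13 ± 0.22, interval -0.65 to 0.39). The other 8 tested had log2 differences between -0.32 (Id1) and 0.92 (Smad6). With the genotypes of the other table, 4 members were called, beside 3.92% of genes. Smad6 was then at 0.650 and 3.70 CPM in HE and 9.40, 9.00 and 9.25 CPM in cKO (1.88 ± 0.41, adjusted p = 0.0660), and Id2 at 13.7 and 11.2 against 26.2, 30.1 and 27.6 CPM (1.11 ± 0.18, adjusted p = 0.0278). Bmp2 (1.40 ± 0.28) and Smad7 (0.60 ± 0.16) made up the rest, and all 4 were higher in cKO. In that version the HE and cKO libraries did not overlap for these 4 genes, nor for Id3 (0.42 ± 0.13), which was not called. How many of all genes did not overlap in this way was not counted. Without the 2 libraries in conflict, which leaves 1 HE mouse, none of the members passed (Smad6 2.62 ± 0.25, adjusted p = 0.170). By the genotypes of the other table, enterocyte markers summed to 434 to 442 CPM in HE and 676 to 1106 CPM in cKO, tuft markers to 16.7 to 26.7 against 56.1 to 77.7 CPM and Paneth cell markers to 5307 to 7006 against 2641 to 3602 CPM, and their part in the 4 calls was not tested.

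Whether loss of Lgr5 acts differently in the adult and at E16.5 was tested as the difference of the 2 effects. By the labels 1 of 10 members passed, beside 0.383% of 22963 genes. This was Bmp3, with a log2 change of -0.13 in the adult against -1.76 at E16.5 and a difference of 1.63 ± 0.30 (adjusted p = 0.0769). The differences of the other 9 ran from -1.27 (Id1) to 2.20 (Bmp4). Bmp4 lay at 0.75 CPM or less in all 5 adult Cre libraries, too low to be tested for an adult change. Its difference in any version therefore mostly restates its change at E16.5 (log2 -1.69 by the main fit) and shows no separate adult effect. The call was lost when E16.5 HE pool 1, E16.5 KO pool 1 or the libraries labelled HE 2, cKO 1 or cKO 3 were left out, with differences of 1.28 to 1.73. By the genotypes of the other table, 3 members passed, Bmp3, Bmp4 and Id2, and without the 2 conflicting libraries Bmp3 and Bmp4 passed. TMM scaling added Id1 by the labels. Tissue, kinds of knockout and sorting gates stand behind the 2 effects and cannot be told apart from age.

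The other genes of the pathway, 49 in number, were taken as ligands, receptors, Smads, antagonists, intracellular inhibitors and further targets. At E16.5 none of the 31 tested was called between genotypes, and the largest values were those of the antagonists Fstl1 (log2 difference -1.94, adjusted p = 0.102) and Grem1 (-1.92, adjusted p = 0.102), each lower in KO, both named after their values were seen. From E16.5 to E18.5, 3 of 30 rose and 9 fell, beside 30.3% and 19.4% of all genes tested. The BMP receptor Acvrl1 (-2.81), the ligand Bmp5 (-4.39), the targets Id4 (-2.33) and Bambi (-1.41) and the antagonists Fst (-2.46), Fstl1 (-4.23), Grem1 (-3.12) and Dand5 (-1.38) were among those that fell, in log2 fold change. Grem1, made by mesenchyme around the crypts, went from 19.5 ± 7.50 to 1.28 ± 0.106 CPM (SD, n = 2 each), and Bmp5 from 32.1 ± 23.3 to 0.375 ± 0.177 CPM. The ligand Bmp8b (1.70), the intracellular inhibitor Skil (0.86) and the co-receptor Rgmb (1.17) rose.

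In the adult against E18.5, 3 of 26 were higher and 4 lower, beside 19% of all genes in either direction. Rgmb, a BMP co-receptor, was at 151 ± 8.31 CPM in the adult (SD, n = 4) and 19.1 ± 2.44 at E18.5 (n = 2), a log2 fold change of 2.93 ± 0.12 (adjusted p = 1.94e-05), higher than the E18.5 level as that was above E16.5. Smad1 (0.68), which carries the signal to the nucleus, and Fstl3 (0.89) were also higher. Skil (-0.96), the type II receptor Acvr2a (-0.73) and Fstl1 (-1.82) were lower, and Grem1 was listed at 0 in all 4 adult libraries against 1.28 ± 0.106 CPM at E18.5. Between regions 1 of 23 was called, beside 6.88% of all genes. The ligand Bmp6 was at 15.6 ± 1.34 CPM in the ileum and 1.48 ± 0.460 in the duodenum (2.76 ± 0.29, adjusted p = 0.00456), the opposite direction to Bmp2. In the adult Cre mice by the labels none of 29 was called, beside 0.0504% of all genes. Grem1 alone of 35 differed in the effect of Lgr5 loss between adult and E16.5 by the labels (2.18, adjusted p = 0.0936), beside 0.383% of all genes. This difference includes the lower level of Grem1 in the E16.5 KO pools, and no adult change of Grem1 was called.

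Over the 15 sorted-cell libraries, the genes whose log2 level ran most like that of Bmp3 were Gm44986 (Pearson 0.942), Gm20470 (0.937) and the mitochondrial ribosomal protein gene Mrpl2 (0.934), of 13102 genes with a mean of at least 5 CPM. The points share a library kit, they differ in stage, mouse line and sorting gate, the adult Cre libraries lie together at the top, and the values are given as a description.

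In organoids, more tests of members were called for the dose of Rspondin than for genotype or ligand. Going from 5 to 100 ng/ml in WT cultures, 12 of 30 tests over the 3 ligands were called at a false discovery rate of 0.05, beside 53.4%, 33.4% and 51.4% of the 19130 genes tested with Rspo1, Rspo2 and Rspo3. Higher calls made up 40.9%, 24.3% and 37.8% and lower calls 12.5%, 9.12% and 13.7% of the genes tested. The members' share, 12 of 30, is not above that of all genes. Bmp3 and Bmp2 were lower and Bmp7 higher at 100 ng/ml with each ligand, while Bmpr1a and Bmp4 were called with none. The higher dose raised more genes than it lowered, with 76.6%, 72.7% and 73.4% of the calls higher. Under TMM scaling, which moved the median of all genes by -0.26, -0.15 and -0.21, the split was 50.4%, 49.2% and 51.9%.

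Bmp3, the atypical ligand, fell with each Rspondin. With Rspo1 it was at 172, 319 and 227 CPM at 5 ng/ml and 54.2, 87.9 and 78.1 CPM at 100 ng/ml in cultures 10, 5 and 30, a log2 fold change of -1.67 ± 0.33 (adjusted p = 2.65e-04). With Rspo2 it was at 138, 141 and 128 CPM at 5 ng/ml and 33.3, 55.9 and 40.6 CPM at 100 ng/ml (-1.66 ± 0.33), and with Rspo3 at 248, 233 and 232 CPM at 5 ng/ml and 99.4, 106 and 93.2 CPM at 100 ng/ml (-1.25 ± 0.33). In all 9 pairs of 1 culture and 1 ligand Bmp3 was lower at the higher dose, and the doses did not overlap with any ligand. Bmp2 was likewise lower in 9 of 9 pairs. It was at 51.1, 19.8 and 41.4 CPM at 5 ng/ml and 15.8, 11.4 and 11.9 CPM at 100 ng/ml with Rspo3 (-1.37 ± 0.24, adjusted p = 5.07e-05), and it changed by -0.92 ± 0.24 with Rspo1 and -0.78 ± 0.24 with Rspo2. Without culture 30 the calls of Bmp2 with Rspo1 and Rspo2 and of Bmp3 with Rspo3 did not pass (adjusted p = 0.0507, 0.142 and 0.0509).

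Bmp7 moved the opposite way. It was at 4.95, 5.95 and 8.00 CPM at 5 ng/ml and 23.6, 29.0 and 34.6 CPM at 100 ng/ml with Rspo1 (2.05 ± 0.28, adjusted p = 4.55e-06), at 13.8, 12.4 and 20.0 CPM at 5 ng/ml and 42.6, 27.1 and 52.9 CPM at 100 ng/ml with Rspo2 (1.33 ± 0.28) and at 2.85, 2.35 and 7.20 CPM at 5 ng/ml and 20.6, 17.4 and 23.8 CPM at 100 ng/ml with Rspo3 (2.18 ± 0.28, adjusted p = 1.21e-06). It was higher at 100 ng/ml in 9 of 9 pairs, and TMM scaling kept all 3 calls. At 5 ng/ml its level with Rspo2 was above that with Rspo1 and Rspo3 in every culture, and the latter pair overlapped. Bmp4 lay at 1.70 CPM or less in all 30 organoid libraries, and none of its dose differences passed, with log2 differences from -0.22 (WT, Rspo3, interval -0.81 to 0.38) to 0.32 (KO, Rspo1, interval -0.41 to 1.04). Bmpr1a lay between 93.3 and 142 CPM in these libraries. It did not pass as deposited, and passed as lower with Rspo3 under TMM scaling (-0.45, adjusted p = 0.00620).

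Among the targets, Id3 with Rspo1 was at 5.70, 4.15 and 4.45 CPM at 5 ng/ml and 14.6, 11.4 and 17.3 CPM at 100 ng/ml and rose by 1.41 ± 0.25 on the log2 scale (adjusted p = 6.91e-05). Id1 (0.41 with Rspo1, 0.44 with Rspo3) and Id2 (0.84 and 0.94) did not pass without a block. With the culture as a block, since each culture was grown in all 6 conditions, both genes were called higher with Rspo1 and Rspo3 (adjusted p = 0.0466 and 0.0339 for Id1, 0.00185 and 6.42e-04 for Id2), as was Smad6 with Rspo3 (0.44, adjusted p = 0.0246), which makes 17 calls. With Rspo2 no Id gene was called in either fit. Smad7 was lower at the higher dose with Rspo1, at 24.4, 26.5 and 23.7 CPM at 5 ng/ml and 13.3, 16.1 and 12.1 CPM at 100 ng/ml (-0.81 ± 0.16), and with Rspo3, at 33.6, 33.3 and 27.7 CPM at 5 ng/ml and 12.7, 13.7 and 11.1 CPM at 100 ng/ml (-1.27 ± 0.16, adjusted p = 1.10e-06). With Rspo2 it was at 12.4, 16.1 and 11.7 CPM at 5 ng/ml, and the doses overlapped (log2 difference 0.07, interval -0.27 to 0.40).

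Cell type markers moved with dose in the same libraries. All 6 stem cell markers rose with each ligand in WT cultures, with summed levels of 216 to 274 CPM at 5 ng/ml and 1412 to 2079 CPM at 100 ng/ml of Rspo1. Paneth cell markers rose too (5 or 6 of 6), and 4 or 5 of 8 enterocyte markers fell (Rspo1 5416 to 5925 against 2324 to 2607 CPM). Mesenchyme markers summed to 12.2 to 23.4 CPM over the organoid libraries. The part of cell composition in the changes of Bmp2, Bmp3, Bmp7 and Smad7 was not tested.

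**Figure D4:**
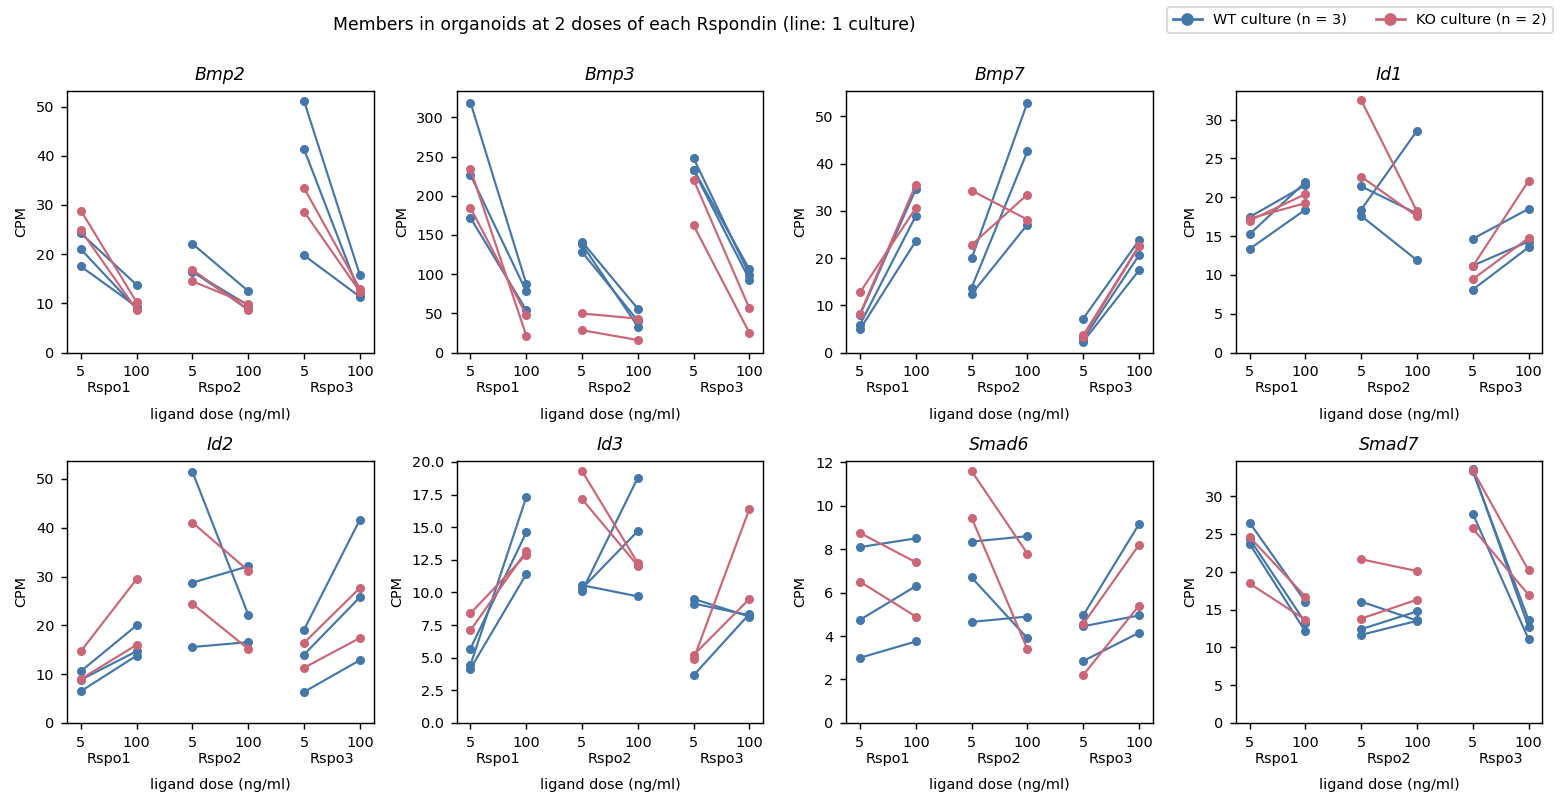
CPM of 8 members in organoids at 5 and 100 ng/ml of each Rspondin, with 1 line per culture (blue, 3 WT cultures, and red, 2 KO cultures). Bmp3 and Bmp2 fall along every line and Bmp7 rises along every WT line. With Rspo2 the KO lines of Bmp3 and Bmp7 stand for log2 changes of -0.50 and 0.13.

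In KO cultures, 9 of 30 tests of dose were called, beside 29.8% of genes with Rspo1, 0.115% with Rspo2 and 44.5% with Rspo3. With Rspo1 and Rspo3, Bmp2, Bmp3 and Bmp7 were called in the directions seen in WT. Bmp3 was at 234 and 185 CPM at 5 ng/ml and 21.8 and 48.1 CPM at 100 ng/ml of Rspo1 in cultures 7 and 2 (-2.64 ± 0.41, adjusted p = 1.31e-04) and at 162 and 220.3 CPM at 5 ng/ml and 25.3 and 56.5 CPM at 100 ng/ml of Rspo3 (-2.29 ± 0.41). Bmp2 changed by -1.42 ± 0.29 with Rspo1 and -1.22 ± 0.29 with Rspo3, and Bmp7 by 1.60 ± 0.34 and 2.41 ± 0.34. Rspo3 also raised Id1 (0.76 ± 0.28, adjusted p = 0.0307) and Id3 (1.16 ± 0.30) and lowered Smad7 (-0.64 ± 0.20). Id1 did not pass under TMM scaling (0.49). Without KO culture 7, 4 calls were left, Bmp3 and Bmp7 with Rspo3, Bmp3 with Rspo1 and Id3 with Rspo3, and without culture 2 Id1 and Id3 with Rspo3 did not pass, with the 1 culture left assumed to vary like the WT cultures. The share of higher calls was 73.6% with Rspo1 and with Rspo3, and 49.6% and 52.0% under TMM scaling, which moved the median of all genes by -0.17 and -0.22.

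With Rspo2 no member was called between doses in KO cultures, where few genes at all were. Bmp3 was at 28.6 and 49.9 CPM at 5 ng/ml and 16.1 and 43.4 CPM at 100 ng/ml (log2 difference -0.50 ± 0.41, interval -1.35 to 0.35). Bmp7 was at 22.8 and 34.3 CPM at 5 ng/ml and 33.5 and 28.2 CPM at 100 ng/ml, and the doses overlapped. The Id genes had values on the other side of 0 from those with Rspo1 and Rspo3: Id3 was at 17.2 and 19.3 CPM at 5 ng/ml and 12.1 and 12.3 CPM at 100 ng/ml and Id1 at 22.7 and 32.5 CPM at 5 ng/ml and 17.6 and 18.2 CPM at 100 ng/ml. Each KO culture was lower at 100 ng/ml of Rspo2 for Id1, Id2, Id3 and Smad6, but none of these passed (adjusted p = 0.789 for Id3). The share of all genes that were lower in both KO cultures was not counted. With the culture block the KO calls rose to 15, and they took in Id2, Id3 and Smad7 with Rspo1, Id2 and Smad6 with Rspo3 and Smad6 with Rspo2 (-0.88, adjusted p = 0.0348). Stem cell markers in KO cultures summed to 839.8 to 2292 CPM at 5 ng/ml and 1824 to 2016 CPM at 100 ng/ml of Rspo2, and none of the 6 was called.

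The difference of the dose effect between KO and WT was tested directly. No member passed with any ligand (0 of 30 tests, beside 0%, 0.439% and 0% of genes). At an unadjusted p under 0.05, 516 genes differed with Rspo1, 2438 with Rspo2 and 430 with Rspo3. With Rspo2, Bmp7 was at -1.20 ± 0.44 (adjusted p = 0.243) and Bmp3 at 1.16 ± 0.53 (adjusted p = 0.359). TMM scaling, which moved the median of all genes by 0.10 with Rspo2, gave no call. With the culture block Bmp7 passed (adjusted p = 0.0278).

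Compared at the same ligand and dose, KO and WT organoids differed in 1 of 60 tests. This was Bmp3 with 5 ng/ml Rspo2, at 138, 141 and 128 CPM in WT and 28.6 and 49.9 CPM in KO (-1.82 ± 0.37, adjusted p = 0.00951), where 4.54% of genes were called. The call was lost without WT culture 10 or 30. In that condition 4 of 6 stem cell markers and 3 of 6 Paneth cell markers were higher in KO, and their part was not tested. The share of higher calls there was 70.0%, and 54.9% under TMM scaling. With the culture block Bmp3 also passed with 100 ng/ml Rspo3, at 99.4, 106 and 93.2 CPM in WT and 25.3 and 56.5 CPM in KO (-1.37 ± 0.34, adjusted p = 0.0390). In the other 5 conditions 0.214% (Rspo1, 100 ng/ml), 0.125% (Rspo1, 5), 1.2% (Rspo2, 100), 0.868% (Rspo3, 100) and 0.193% (Rspo3, 5) of genes were called. As 1 mean per culture over the 6 conditions, no member was called (29 genes, 0.152%). Bmp3 was lower in both KO cultures than in all 3 WT cultures, with a log2 difference of -0.91 ± 0.22 (adjusted p = 0.274), and passed when KO culture 2 was left out. Over the 6 conditions the log2 differences of the other members ran from -0.49 (Bmp4) to 0.85 (Bmp7), none of them called.

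The 3 ligands gave called differences in the members at 5 ng/ml, and none at 100 ng/ml. In WT cultures 5 of 40 tests were called. At 5 ng/ml, Rspo2 against Rspo1 gave 4 calls, beside 22.8% of genes: Bmp7 (1.16 ± 0.28), Id2 (1.64 ± 0.44) and Id3 (0.98 ± 0.25) were higher and Smad7 (-0.86 ± 0.16) lower. Id2, for instance, was at 8.85, 6.50 and 10.6 CPM with Rspo1 and 28.8, 15.6 and 51.5 CPM with Rspo2. Rspo3 against Rspo1 gave 1 call, Bmp2 (0.72 ± 0.24, adjusted p = 0.0421), beside 16.4% of genes. In KO cultures 4 of 40 were called, all at 5 ng/ml. With Rspo2 against Rspo1, Bmp3 was lower (-2.43 ± 0.41, adjusted p = 9.28e-04) and Bmp7 (1.37 ± 0.34) and Id3 (1.14 ± 0.30) higher, beside 17.9% of genes. With Rspo3 against Rspo1, Bmp7 was lower (-1.34 ± 0.34), beside 16.2%. In WT, Id2 did not pass without culture 10 or 30, Bmp7 without 10 and Id3 without 30. Bmp2 did not pass without WT culture 10 or 30 or either KO culture (adjusted p = 0.0753 without 7 and 0.0752 without 2), with every gene that had a nonzero library tested (0.0846), or in a fit of the groups compared only (0.185). In KO, Bmp7 and Id3 did not pass without either culture.

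At 100 ng/ml no member was called between ligands in either genotype, where 0.204% (Rspo2 against Rspo1) and 0.00523% (Rspo3 against Rspo1) of genes were called in WT and 0.0105% and 0% in KO. For Bmp3 the interval of the WT difference ran from -1.45 to -0.06 for Rspo2 against Rspo1 and from -0.23 to 1.15 for Rspo3. The culture block raised the calls to 10 in each genotype, of which 1 was at 100 ng/ml: Id3 in WT was lower with Rspo3 than with Rspo1 (-0.72 ± 0.20, adjusted p = 0.0256). The added calls at 5 ng/ml were Bmp3, lower with Rspo2 than with Rspo1, and Bmp7, lower, and Bmpr1a and Smad7, higher, with Rspo3 than with Rspo1 in WT. In KO they were Bmp2, lower, and Id1 and Id2, higher, with Rspo2, and Id1 and Smad6, lower, and Smad7, higher, with Rspo3. TMM scaling alone added Bmpr1a in WT with Rspo3 (0.40, adjusted p = 0.0390) and Bmp2 in KO with Rspo2 (-0.90). The share of higher calls between ligands at 5 ng/ml changed under TMM scaling, from 72.1% to 50.2% and from 22.5% to 40.8% in WT and from 75.7% to 52.1% and from 19.3% to 37.5% in KO. In WT at 100 ng/ml of Rspo3 against Rspo1, 1 gene was called as deposited, and 82.2% of those called under TMM scaling were higher. TMM scaling moved the median of all genes by 0.12 in that comparison, and by -0.13 (Rspo2 against Rspo1) and 0.10 (Rspo3 against Rspo1) at 5 ng/ml in KO.

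Of the 49 other pathway genes, 28 were tested in organoids. Dose gave 32 higher and 15 lower calls over 3 ligands in WT cultures and 17 and 5 in KO cultures, with these 28 genes tested for each ligand. With Rspo1, Rspo2 and Rspo3 in WT, 40.9%, 24.3% and 37.8% of all genes tested were called higher and 12.5%, 9.12% and 13.7% lower. In KO, 29.8%, 0.115% and 44.5% were called in either direction, so these counts are not set apart from those of all genes. In WT the median log2 change of the tested pathway genes ran from 0.15 to 0.28 over the ligands, beside 0.17 to 0.28 over all genes tested. Rgmb, the co-receptor, rose furthest with dose, from 42.2 ± 12.5 to 270 ± 44.8 CPM with Rspo2 in WT (SD, n = 3, log2 2.67 ± 0.29) and by 2.01 ± 0.29 with Rspo1. Atoh8, a target gene, rose from 0.433 ± 0.104 to 4.25 ± 1.63 CPM with Rspo2 in WT (1.82 ± 0.23). In KO cultures with Rspo1, Atoh8 (1.98 ± 0.28), Rgmb (1.97 ± 0.36) and the ligand Bmp8b (1.89 ± 0.35) had the largest rises. Between KO and WT, Atoh8 (1.69 ± 0.26) and Rgmb (1.23 ± 0.33) were higher in KO with 5 ng/ml Rspo2, and Bmp8b with 100 ng/ml Rspo3 (1.40 ± 0.32). The 2 KO cultures lay far apart in Rgmb with 5 ng/ml Rspo2, at 112 ± 78.3 CPM (SD), which the SE shared by all libraries does not show. The effect of Rspo2 dose was lower in KO than in WT for Atoh8 (-1.80 ± 0.36, adjusted p = 0.0277) and Smad9 (-0.85 ± 0.18, adjusted p = 0.0352). Between ligands the largest called values were those of Atoh8 (1.84), Rgmb (1.51) and Bmp8b (1.37) in KO for Rspo2 against Rspo1 at 5 ng/ml. In WT they were Skil (0.63) and Bmp8a (0.51) for Rspo3 against Rspo1 at 5 ng/ml and Smad9 (0.54) for Rspo2 against Rspo1 at 100 ng/ml.

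Over the 30 organoid libraries, the genes most like Id1 in log2 level were Snrpc (Pearson 0.865), Rbm3os (0.859) and Gm15444 (0.858) of 12337 genes with a mean of at least 5 CPM. These libraries share cultures and doses, and the values are a description.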

How the data were processed

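Reads were trimmed, aligned to the mouse genome GRCm38 and counted per Ensembl gene (release 90) by the authors, whose processing notes name Trimmomatic 0.36, STAR 2.5.3a and HTSeq 0.9.1, and the deposited values are CPM with no filter. The sorted cells and the organoids were prepared with different library kits and are held in 2 tables, which were tested apart. The CPM were log2-transformed after adding 1, a gene was kept if the number of libraries in which it reached 1 CPM was no smaller than the smallest group, and groups were compared with limma 3.58.1 in R 4.3.3, with Benjamini-Hochberg adjusted p-values over all genes tested. Calls needed a false discovery rate of 0.1 and a fold change of 1.5 in sorted cells, and a false discovery rate of 0.05 in organoids. Fold changes are on the log2(CPM + 1) scale and understate the change of low genes. Nothing says that all libraries of a group came from separate experiments, and p-values measure only the spread between these libraries.

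Whole reads were recovered from the CPM of the E16.5 pools (100% of the low values equalled a whole number of reads rounded up to the 0.05 CPM step, to within 1e-06 of a step), and edgeR 4.0.16 was run on these 4 libraries only. Libraries of 1 litter, mouse or organoid culture come from the same source. Deviations from the group means correlated at -0.03 within litters, 0.26 within mice and at a median of 0.50 within cultures. The rule for named genes took all 10 members, other pathway genes that were called in sorted cells (1 gene is not reported here), the 3 with the largest called change in each family of organoid comparisons, and the 3 genes most correlated with Bmp3 and Id1. The members and lists were chosen with earlier results of these data known. The tests were tried on simulated data. Of the listed pathway and marker symbols 1 is not in the tables, and promoter sequences are those of RefSeq. Alternatives were another pseudocount, other filters, TMM scaling, other sets of libraries, blocks for litter, mouse or culture, and leaving out each sorted-cell library or organoid culture.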

Additional observations from a re-analysis of the deposited data

Results flagged for a closer look

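The effect of Lgr5 loss on Bmp3 differed between adult and E16.5 cells by 1.63 on the log2 scale in the test of the difference itself (limma, adjusted p = 0.0769), by the labels of the adult mice.

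In KO organoids, both cultures moved 1 way between 5 and 100 ng/ml with 1 Rspondin and both the other way with another in 4 members, and these differences were not tested. For Id1 the mean dose effects with Rspo1 and Rspo2 lay 0.777 apart, and those with Rspo3 and Rspo2 1.339 apart, on the log2 scale. The gaps for Id2 were 1.381 and 1.169, and for Id3 they were 1.23 and 1.706, with Rspo2 the lower each time. For the inhibitory Smad6 the effect with Rspo3 was 1.145 above that with Rspo1 and 1.747 above that with Rspo2. Each direction rests on 2 cultures. How many of all genes moved in this way was not counted, so these members are not set apart from other genes.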

How the results depend on the processing

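Over 3214 alternatives for single members, 3067 kept their side of the threshold, 67 lost a call, 80 gained one and none reversed a called value. Most of the 3067 were results that were not called and stayed so. The 67 lost calls thus belong to the smaller set of alternatives of called results, whose size is not given here. Of the 3067, 181 were values not called that changed sign. Of 10 members tested between E16.5 KO and HE, 0 were called with a pseudocount of 0.1 or with every nonzero gene tested, 2 with the litter block (830 genes against 91, and 762 by edgeR with the block, also 2 members), and 3 in 1 fit of all 15 sorted libraries (1073 genes). By edgeR without the block 354 genes were called. In the adult against E18.5, 6 members were called with 1 mean per mouse and 6 with the duodenum alone. Between regions, 0 were called with every nonzero gene tested (223 genes against 1280) and 4 with the mouse block (2065 genes). In the adult Cre mice the other genotypes gave 4 members (779 genes against 10), or 3 with TMM scaling (489 genes), a combination chosen after seeing the data. The adult and E16.5 difference gave 2 members with TMM scaling (185 genes against 88), 3 with the other genotypes (1499) and 2 without the conflicting libraries (1491), the last also chosen after seeing the data. The culture block gave 15 members for dose in KO, 2 for KO against WT, 10 for ligands in WT and 10 in KO, and 1 for the difference in dose effect. A fit of only the groups compared gave 1 for ligands in KO. Ranks of members by CPM equalled those by CPM per kb in 69 of 190 cases.

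Testing only genes with a mean of at least 10 CPM changed the genes called from 91 to 196 at E16.5, from 3717 to 2275 in the adult against E18.5, from 1280 to 709 between regions, from 9138 to 5212 between E16.5 and E18.5, from 26458 to 16751 for dose in WT, from 1365 to 836 for KO against WT and from 84 to 35 for the difference in dose effect.

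Leaving out 1 library gave 0 to 2 members at E16.5, 0 to 4 in the adult against E18.5, 1 to 5 between regions, 4 to 7 between E16.5 and E18.5, 0 in the adult Cre mice and 0 to 3 for the difference between adult and E16.5. In organoids 1 culture, with its 6 libraries, was left out at a time. This gave 9 to 13 for dose in WT and 2 to 6 for ligands in WT. Without 1 of the WT cultures, dose in KO gave 9 to 10, ligands in KO 4 to 6 and KO against WT 0 to 2. The difference in dose effect and the culture means then gave 0. Leaving out a KO culture leaves 1 in its group, and the calls for dose and for ligands in KO then fell in number. The cause of these changes was not tested beyond the fewer libraries or genes in each.

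The adult Cre mice, and the E16.5 and E18.5 embryos, share only replicate numbers. Correlations of deviations were 0.16 and 0.42 for numbers 1 and 2 in the Cre mice and -0.02 in the embryos. Unlike numbers in the Cre mice gave 0.386 (HE 1 with cKO 3), -0.419 (HE 1 with cKO 2), -0.161 (HE 2 with cKO 1) and -0.386 (HE 2 with cKO 3). Each positive value was between libraries of the same genotype in the other table, and what lies behind it was not tested. A replicate block gave 0 members and 16 genes in the Cre mice and moved no count of members by over 1.5 times in the embryos. No paired analysis was possible because no numbers are shared for the adult against E18.5. The count test was run at E16.5 only. In the shallowest sorted-cell library 1 read was worth 0.784 CPM, and in organoids at most 0.0552 CPM, which limits the precision of members near these levels.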
